A study of Caenorhabditis elegans with 2 samples.

Results

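Dosage compensation and sex determination genes were examined for JUN-1 peaks in the nematode Caenorhabditis elegans, using whole larvae of the first stage (L1). The set held 10 named genes (xol-1, sdc-1, sdc-2, sdc-3, dpy-21, dpy-26, dpy-27, dpy-28, dpy-30 and her-1) of 19973 protein-coding genes on the nuclear chromosomes. Each gene was given the window from 5 kb upstream of its annotated start to its end, and every peak summit in that window was described. JUN-1 is the worm Jun protein, a basic leucine zipper transcription factor. Chromatin immunoprecipitation followed by sequencing (ChIP-seq) targeted a jun-1 tagged with eGFP in strain OP234. All animals carried the unc-119(ed3) mutation on chromosome III together with the transgene insertion wgIs234. They were mixed in sex, and their age within the stage is given as unknown. The 2 biological replicates came from separate biosamples and formed the only group, so no condition could be compared and no test was run. Whole larvae were used, so the peaks cannot be assigned to a cell type.

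In C. elegans, XX animals are hermaphrodites and XO animals are males. A dosage compensation complex built like a condensin binds both X chromosomes of hermaphrodites and lowers their transcription towards the level of the lone male X. The switch gene xol-1 is active in XO embryos, where it keeps sdc-2 off. In XX embryos SDC-2, helped by SDC-3, brings the complex to X, and the SDC proteins also silence her-1, which otherwise directs male fate.

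IDR-thresholded JUN-1 peaks lay upstream of most of these genes and within none of them. IDR is the irreproducible discovery rate, a measure of how alike a peak ranks between replicates. How often such summits lie inside genes was not computed over all protein-coding genes, so their placement is only described. Of the 10 genes, 7 had at least 1 summit of the IDR-thresholded list, against 18.6% of all protein-coding genes with the same kind of window. The 7 genes were xol-1, sdc-2, dpy-21, dpy-27, dpy-28, dpy-30 and her-1, and sdc-1, sdc-3 and dpy-26 had none. The windows were longer than usual, with a median of 11.7 kb against 7.03 kb over all protein-coding genes, and the difference in shares was not tested. In the promoter window, from 1000 bp upstream to 200 bp downstream of the start, 3 of the 10 genes had a summit (sdc-2, dpy-27 and dpy-30), against 8.42% of all genes. For 4 genes (these 3 and xol-1) the nearest protein-coding start was that of the gene itself, against 9.12% of all genes.

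**Figure D1:**
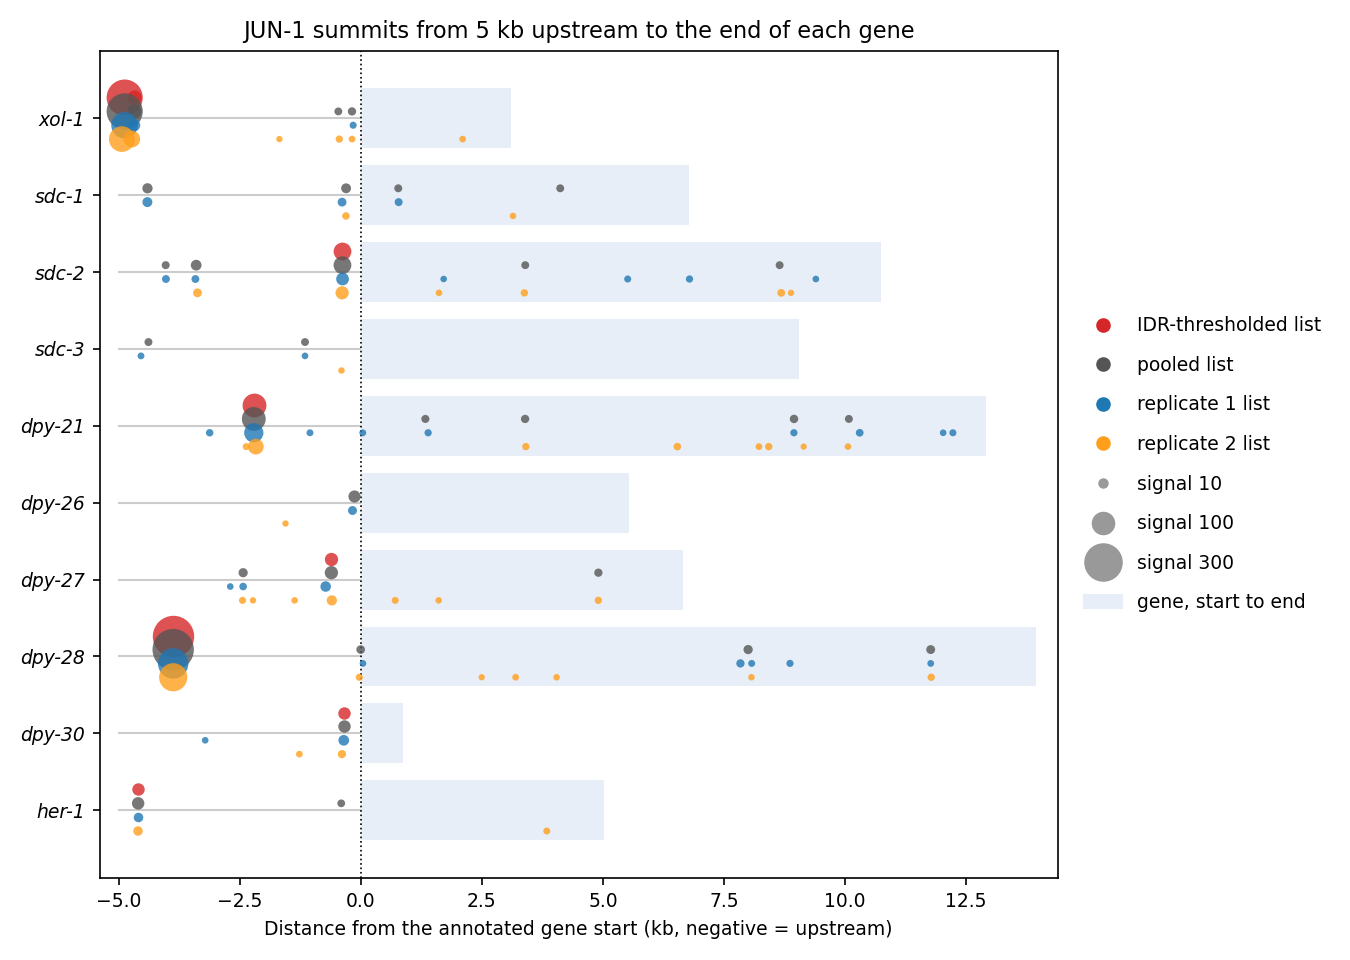
Summits in the windows of the 10 genes, drawn by distance from the annotated start in kb, with upstream to the left and each gene drawn in its own direction of transcription. Colours mark the 4 lists, the area of a point grows with the authors' signal, and pale bars are the genes. The 8 IDR-thresholded summits all lie upstream, and the summits inside the genes reach a signal of at most 13.7.

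The IDR-thresholded list held 2305 peaks, the pooled list 19646, and the lists of replicates 1 and 2 held 28101 and 30000 peaks, background included. Signal is the authors' value per peak on an unstated scale, and a rank counts down from the strongest peak of a list. Every IDR-thresholded peak was found in the pooled list with the same signal and the same rank, so 1 value stands for both. The IDR-thresholded peaks were thus the 2305 strongest pooled peaks, and 2293 of them were overlapped in both replicate lists. Membership alone therefore does not show that a peak was found in both replicates. The pooled and replicate lists include background, so an overlap between weak peaks in them does not show binding. The scale may differ between lists, so a ratio of signals is read only beside the same ratio over all peaks. Replicate values are given for each main peak in place of an error, since the lists hold no read counts and the depth is unknown.

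The switch gene xol-1 (WBGene00006962, X:8041313-8044409, plus strand) had a peak with paired summits far upstream. Its interval, X:8036213-8036671, held 2 summits in the IDR-thresholded list. The first lay 4880 bp upstream of the start with a signal of 295 (rank 24) and the second 4677 bp upstream with 41.1 (rank 1330). In replicate 1 the first summit had a signal of 155 (rank 31) and in replicate 2 a signal of 146 (rank 10). The first xol-1 summit was therefore among the 31 strongest of each replicate. The second had 27.7 (rank 1072) in replicate 1 and 59.2 (rank 133) in replicate 2, so the replicates placed it less alike. Its ratio of replicate 2 to replicate 1 signal was 2.13, against a median of 0.727 over the 2293 IDR-thresholded peaks overlapped in both lists, and 38 of these had a higher ratio. Only 2 intervals of the IDR-thresholded list held more than 1 summit. The summits of replicate 2 lay 55 bp and 50 bp farther from the gene than those of replicate 1. No protein-coding start was nearer to either summit than that of xol-1 itself. The sequences are shown because the first window holds a perfect inverted repeat and the second part of a tRNA gene. Both are 200 bp windows centred on the summits, from the RefSeq copy of WBcel235, plus strand, X:8036334-8036533 and X:8036537-8036736, and capitals mark the arms of the inverted repeat.
xol-1, summit 4880 bp upstream: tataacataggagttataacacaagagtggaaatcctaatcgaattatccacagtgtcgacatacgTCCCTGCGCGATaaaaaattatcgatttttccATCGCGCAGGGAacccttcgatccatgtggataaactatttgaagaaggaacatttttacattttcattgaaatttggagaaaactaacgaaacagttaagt
xol-1, summit 4677 bp upstream: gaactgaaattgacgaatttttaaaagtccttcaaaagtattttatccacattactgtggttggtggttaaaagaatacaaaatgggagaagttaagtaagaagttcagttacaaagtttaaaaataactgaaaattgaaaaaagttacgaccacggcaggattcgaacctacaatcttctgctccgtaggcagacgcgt

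The arms of the xol-1 repeat, TCCCTGCGCGAT and ATCGCGCAGGGA, are 12 bases long with 20 bases between them. The repeat spans X:8036400-8036443 and so contains the summits of the pooled and replicate 1 lists. The replicate 2 summit, at X:8036374, lay outside it. Exact inverted repeats with arms of at least 12 bases and at most 40 bases between them were in 14 of the 2305 IDR-thresholded summit windows (0.607%). This feature was looked for after the sequence had been seen. The second summit lay 49 bp from a tRNA gene on the minus strand (WBGene00022939, X:8036685-8036757), part of which the second window covers. Near the xol-1 start the peaks were weak. The pooled list had summits 466 bp and 184 bp upstream with signals of 8.38 (rank 17743) and 9.89 (rank 12860). Replicate 1 had 1 nearby, 160 bp upstream (signal 5.54, rank 15560). Replicate 2 had 2 nearby, 446 bp (6.23, rank 9134) and 183 bp upstream (4.67, rank 16077). Replicate 2 had a summit 1684 bp upstream (3.22, rank 28651) and a further one in a coding exon 2102 bp downstream (4.26, rank 18865), neither overlapped by a peak of another list.

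The X-linked sdc-2 (WBGene00004746, X:11522707-11533450, plus strand), whose protein starts assembly of the complex on X, had the strongest peak of the set in its own promoter window. The IDR-thresholded peak at X:11522154-11522497 had its summit 381 bp upstream, a signal of 67.0 and rank 578. Replicate 1 gave 31.5 (rank 851) and replicate 2 gave 34.3 (rank 429), with summits 9 bp apart. The replicates thus placed the sdc-2 peak in the same spot and within the strongest 3.03% of each list. The sequence at this summit, X:11522227-11522426 on the plus strand, is shown because it is the strongest of the set that lies close to its own gene. Capitals mark GAGAGA read on either strand.
sdc-2, summit 381 bp upstream: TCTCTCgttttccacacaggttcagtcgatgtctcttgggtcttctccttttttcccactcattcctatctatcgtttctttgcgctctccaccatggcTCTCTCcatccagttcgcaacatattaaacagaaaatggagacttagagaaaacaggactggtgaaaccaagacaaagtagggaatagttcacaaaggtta

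Farther from the sdc-2 start the pooled list held 4 more summits. At 3403 bp upstream a signal of 20.7 (rank 3639) lay 238 bp before the start of the neighbour hpo-34, and replicates 1 and 2 gave 8.24 (rank 7487) and 11.9 (rank 2601) there. At 4033 bp upstream, within hpo-34, the signal was 8.82 (rank 16059), with 8.33 (rank 7331) in replicate 1 and no peak in replicate 2. Inside sdc-2, coding exons held summits 3395 bp and 8651 bp downstream of the start, with pooled signals of 8.40 (rank 17659) and 8.50 (rank 17297). Replicate 2 alone had peaks over these, with 6.56 (rank 8210) and 7.91 (rank 5572), and another 8886 bp downstream (3.39, rank 26719). The antisense gene anr-16 also covers the first of them. An intronic peak in each replicate list, 1710 bp downstream in replicate 1 (3.93, rank 26777) and 1613 bp in replicate 2 (4.18, rank 19575), had no pooled counterpart. Replicate 1 had 3 more summits in coding exons, 5512, 6789 and 9399 bp downstream, with signals of 5.42, 6.22 and 4.24 (ranks 16186, 12682 and 23998).

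The partner genes sdc-1 and sdc-3, both coding for zinc finger proteins, had no IDR-thresholded summit. At sdc-1 (WBGene00004745, X:16275763-16282534, plus strand) the pooled promoter summit, 306 bp upstream, had a signal of 16.5 (rank 5158). It was found in both replicates, with 12.1 (rank 3905) in replicate 1 and 6.92 (rank 7285) in replicate 2. The strongest pooled summit of the sdc-1 window lay 4409 bp upstream (18.0, rank 4441), within a tRNA gene and nearer the start of ifa-3, which lay 1285 bp away. Replicate 1 gave 16.9 there (rank 2337) and replicate 2 had no peak. Introns of sdc-1 held pooled summits 772 bp (8.61, rank 16857) and 4118 bp downstream (8.56, rank 17053), of which replicate 1 had the first (8.77, rank 6695). Replicate 2 had a lone exonic summit 3142 bp downstream (3.77, rank 23137).

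The sdc-3 window (WBGene00004747, V:15039148-15048207, minus strand) was the weakest of the 10. Its strongest pooled summit, 4389 bp upstream and 54 bp before the start of C25D7.5, had a signal of 8.68 (rank 16589), and the other, 1155 bp upstream, had 8.42 (rank 17593). Replicate 1 had both, with 4.82 (rank 19628) and 4.30 (rank 23545). The replicate 2 list held 1 summit in the sdc-3 window, 417 bp upstream (3.67, rank 24139), which neither of the other lists had. No sdc-3 summit was shared by the replicates, and none lay inside the gene.

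Among the condensin-like subunits, dpy-28 had the strongest peak of the set, but at the far end of its window. The gene dpy-28 (WBGene00001087, III:10763131-10777076, plus strand) codes for a HEAT-repeat subunit that the complex shares with another condensin. The peak at III:10759130-10759378 had a signal of 389 and rank 7, with 208 (rank 11) in replicate 1 and 177 (rank 5) in replicate 2. The summit fell on the same base in both replicates. It lay 3878 bp upstream of dpy-28 but 54 bp before the start of tasp-1, the worm taspase gene, and in the promoter window of the divergent K01G5.10. Only 109 bp separated dpy-28 from the next protein-coding gene upstream, and tasp-1 is among the genes between the peak and dpy-28. The sequence upstream of the tasp-1 transcript, III:10759154-10759306 on the plus strand, is shown because it carries the strongest summit of the set. Capitals mark GAGAGA. Of the 200 bp summit window 153 bp are shown, ending just before the tasp-1 start, and the part within the transcript is left out. Motif counts and G and C content refer to the full 200 bp.
tasp-1 side of the dpy-28 peak: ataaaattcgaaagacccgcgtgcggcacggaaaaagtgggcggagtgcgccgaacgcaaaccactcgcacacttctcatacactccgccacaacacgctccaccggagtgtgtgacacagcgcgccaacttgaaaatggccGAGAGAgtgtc

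At the dpy-28 start itself the pooled signal was 11.2, 5 bp upstream (rank 10077). Replicate 1 gave 4.25 (rank 23923), 43 bp downstream, and replicate 2 gave 5.71 (rank 10902), 33 bp upstream. Inside dpy-28 the pooled list had a coding-exon summit 8000 bp downstream (13.7, rank 6990) and an intronic one 11772 bp downstream (12.4, rank 8387). Peaks of both replicate lists overlapped these weak sites. Their pooled −log10 q-values were 0.566 and 0.382, against 3.73 at the top of the pooled list. At the first, replicate 1 had 2 summits, 7841 bp (9.95, rank 5310) and 8073 bp downstream (5.17, rank 17551), and replicate 2 had 1, 8069 bp downstream (3.77, rank 23177). At the second, replicate 1 had 4.57 (rank 21380) and replicate 2 had 6.60 (rank 8104). Other summits within dpy-28 were in 1 replicate only. Replicate 1 had 5.90 (rank 13904) 8865 bp downstream, and replicate 2 had 3.17, 4.56 and 3.81 (ranks 29285, 16714 and 22643) at 2496, 3197 and 4043 bp.

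The dpy-27 gene (WBGene00001086, III:3813018-3819679, minus strand) codes for the SMC4-like protein found only in the dosage compensation condensin. Its promoter peak, III:3820117-3820460, had its summit 610 bp upstream, a signal of 34.8 and rank 1720. Replicate 1 gave 19.6 (rank 1900) and replicate 2 gave 18.1 (rank 1308). The replicate summits at dpy-27 were 127 bp apart, the widest gap among the IDR-thresholded peaks of the set. A weaker pooled peak 2433 bp upstream (13.6, rank 7110) lay 291 bp before the neighbour amx-1 and was in both replicates, with 7.36 (rank 9185) in replicate 1 and 5.74 (rank 10784) in replicate 2. A coding exon of dpy-27 held a pooled summit 4906 bp downstream (9.80, rank 13084), with 6.27 (rank 9024) in replicate 2 and no peak in replicate 1. The remaining dpy-27 summits were weak, 1 in replicate 1 (4.19, rank 24466, 2699 bp upstream) and 4 in replicate 2. Those of replicate 2 had signals of 3.55 and 4.05 upstream (2229 and 1369 bp, ranks 24999 and 20502) and 5.19 and 3.91 in coding exons (709 and 1607 bp, ranks 13215 and 21558).

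The kleisin-type subunit gene dpy-26 (WBGene00001085, IV:12445801-12451335, minus strand) lay just below the IDR threshold. Its pooled peak, IV:12451300-12451643, had its summit 137 bp upstream, a signal of 28.1 and rank 2348, whereas the last of the 2305 IDR-thresholded peaks had a signal of 28.4. Replicate 1 gave 12.5 (rank 3696) at 177 bp upstream, and no peak of replicate 2 overlapped it. The replicate 2 list held 1 summit in the dpy-26 window, 1569 bp upstream in a coding exon of spe-44 (3.38, rank 26998). Hence dpy-26 had the pooled summit closest to its start after dpy-28, but only replicate 1 showed it.

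The histone demethylase gene dpy-21 (WBGene00001080, V:17936282-17949193, minus strand), whose product acts on methylated lysine 20 of histone H4, had a strong peak nearer a neighbour. The peak at V:17951234-17951577 had a signal of 125 and rank 165, with 79.6 (rank 134) in replicate 1 and 51.3 (rank 181) in replicate 2. The ranks at dpy-21 were thus close in both replicates. Its summit lay 2213 bp upstream of dpy-21 and 543 bp before the start of Y59A8B.24. Replicate 2 had a weak second summit beside it (5.12, rank 13568, 2371 bp upstream). Inside dpy-21 the pooled list had 4 summits, 1332, 3392, 8948 and 10081 bp downstream, with signals of 9.09, 9.98, 10.5 and 8.67 (ranks 15161, 12607, 11495 and 16637). Peaks of both replicates overlapped the last 2 of these. Replicate 1 gave 6.12 (rank 13029) and 7.72 (rank 8466) there, and replicate 2 gave 3.13 (rank 29776) and 4.17 (rank 19638), with summits 202 and 242 bp apart. The first of the 4 was overlapped in replicate 1 alone (6.03, rank 13355) and the second in replicate 2 alone (6.34, rank 8775). Replicate 1 had 5 further summits, with signals of 6.81 and 5.12 upstream (3124 and 1052 bp) and of 4.84, 4.28 and 5.53 in the gene (39, 12029 and 12230 bp downstream). Replicate 2 had 3 further ones in the gene, of 7.26, 4.67 and 6.70 (6538, 8224 and 8425 bp downstream), and the replicates shared none of these. Over the window dpy-21 had 9 summits in replicate 1 and 8 in replicate 2, the most of the 10 genes in each list. Its window was long, 17.9 kb against a median of 11.7 kb over the 10 genes. In the replicate lists all but the strong peak were at or below a signal of 7.72.

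The small gene dpy-30 (WBGene00001088, V:12191519-12192385, plus strand), which codes for a subunit shared with histone H3 lysine 4 methyltransferase complexes, had a peak near the end of the IDR-thresholded list. At V:12190988-12191331 the signal was 29.8 (rank 2153), with the summit 359 bp upstream. Replicate 1 gave 20.4 (rank 1774) and replicate 2 gave 9.68 (rank 3711). The dpy-30 peak was the weakest of the 8 in replicate 2, and its replicate summits were 38 bp apart. The other dpy-30 summits were weak, 3217 bp upstream in replicate 1 (4.12, rank 25065) and 1271 bp upstream in replicate 2 (4.45, rank 17417). Its summit window, V:12191061-12191260 on the plus strand, is shown because it is the only window of the 7 described with the recurrent worm promoter element CTGCGTCTC, in capitals.
dpy-30, summit 359 bp upstream: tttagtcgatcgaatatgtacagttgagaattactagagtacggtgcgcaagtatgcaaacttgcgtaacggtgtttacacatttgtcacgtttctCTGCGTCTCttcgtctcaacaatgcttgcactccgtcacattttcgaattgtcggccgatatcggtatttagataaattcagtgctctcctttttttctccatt

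The target gene her-1 (WBGene00001842, V:9697015-9702035, plus strand), which codes for the secreted male-determining ligand of TRA-2, had no strong peak at its own start. Its IDR-thresholded peak lay 4602 bp upstream with a signal of 29.7 (rank 2165), 254 bp before the start of ztf-9. Replicate 1 gave 15.1 (rank 2738) and replicate 2 gave 14.8 (rank 1810), with summits on the same base. At 406 bp upstream of her-1 the pooled list had a signal of 7.98 (rank 19414), near the bottom of that list, and neither replicate had a peak there. Replicate 2 had a summit in a coding exon of her-1, 3840 bp downstream (5.16, rank 13393).

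**Figure D2:**
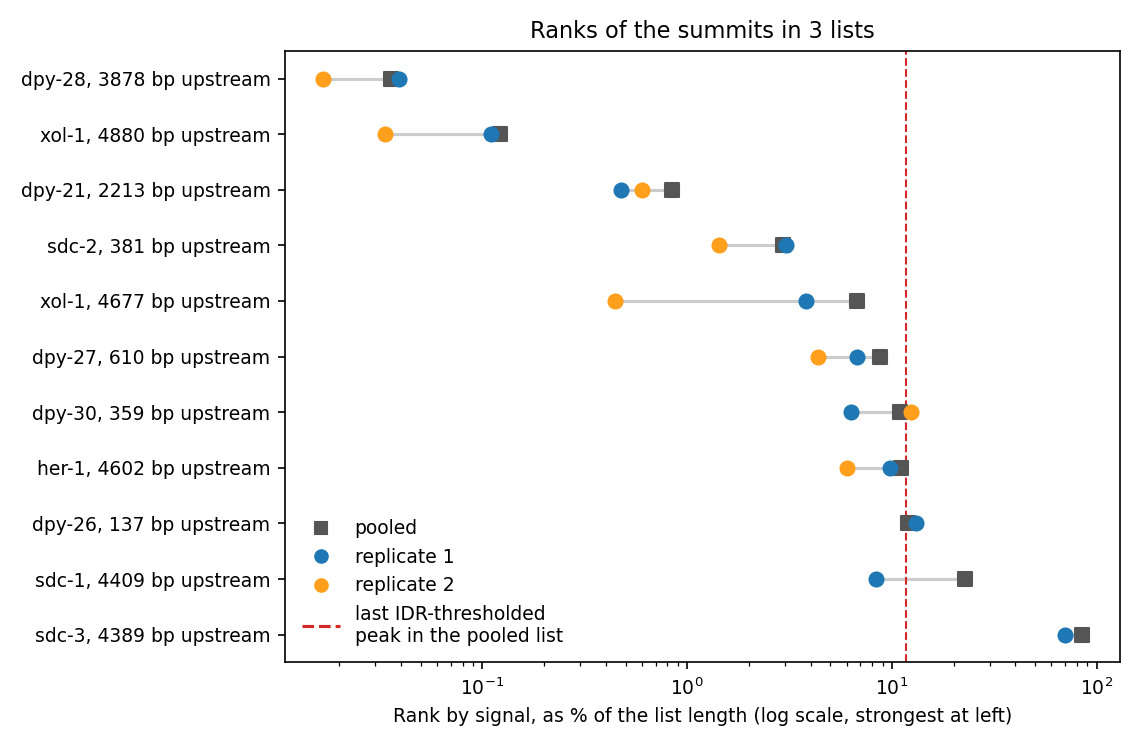
Rank by signal as a percentage of the list length, on a log axis, for the 8 IDR-thresholded summits and, for the 3 genes without one, the strongest pooled summit. Squares are the pooled list and circles the replicates, a missing circle means that no peak of that replicate overlapped, and the dashed line is the last IDR-thresholded peak in the pooled list. The dpy-28 and first xol-1 summits stay at the strong end in all 3 lists, while dpy-26, sdc-1 and sdc-3 lack a replicate 2 circle.

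By pooled signal the 8 summits ran in the order dpy-28 (389), xol-1 (295), dpy-21 (125), sdc-2 (67.0), the second of xol-1 (41.1), dpy-27 (34.8), dpy-30 (29.8) and her-1 (29.7). Replicate 1 kept the first 5 in this order and had dpy-30 (20.4) above dpy-27 (19.6). Replicate 2 put the second xol-1 summit (59.2) above dpy-21 (51.3) and sdc-2 (34.3), and dpy-30 (9.68) below her-1 (14.8). Only dpy-30 and the second xol-1 summit thus changed place between the replicates, and the other 6 kept 1 order. The 8 summits had a median signal of 54.0, against 44.7 over the whole IDR-thresholded list.

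**Figure D3:**
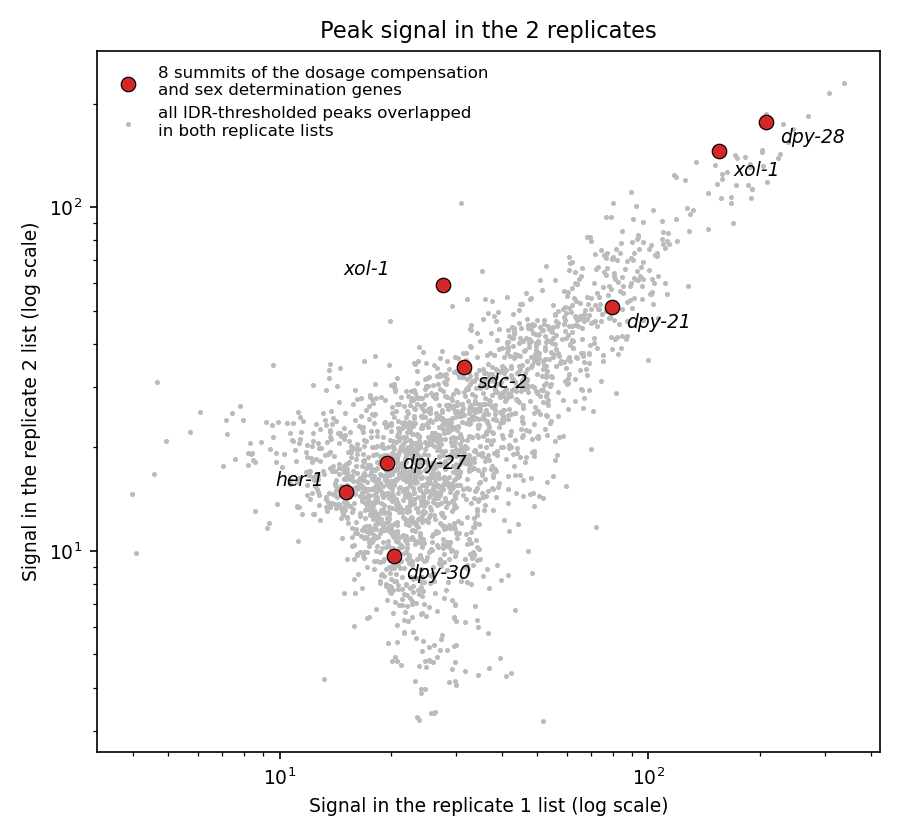
Signal in replicate 1 (x axis) and replicate 2 (y axis), both log scales, for the 8 summits in red and for all IDR-thresholded peaks overlapped in both lists in grey. The second xol-1 summit, at 27.7 and 59.2, lies at the upper edge of the cloud, and dpy-30, at 20.4 and 9.68, lies towards its lower side.

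The weak summits of the lists were found at about the rate of the chromosomes as a whole. The 10 windows cover 125 kb, in which each chromosome's average rate would give 2.85 IDR-thresholded summits, and 8 were found. For the pooled list the numbers were 31 found and 24.7 at the average rate, for replicate 1 they were 37 and 35.2, and for replicate 2 they were 42 and 37.7. Per 10 kb, the windows held 0.642 IDR-thresholded summits, against 0.268 over the windows of all protein-coding genes. All 10 genes had at least 1 summit in the pooled and in each replicate list, as did 69.3% of all genes in the pooled list, 80.3% in replicate 1 and 84.5% in replicate 2. Inside the genes the pooled list had 11 summits in 5 genes (signals of 8.40 to 13.7), replicate 1 had 16 in 4 genes (3.93 to 9.95) and replicate 2 had 21 in 7 genes (3.13 to 7.91). Of the replicate 1 summits in the windows, 20 of 37 were overlapped by a replicate 2 peak. Of the replicate 2 summits, 21 of 42 were overlapped by a replicate 1 peak. The same share was not computed over all peaks of the lists, so whether this agreement is usual cannot be told. Those without a counterpart reached 16.9 in replicate 1, at the tRNA gene upstream of sdc-1, and 7.91 in replicate 2, inside sdc-2. No member had an IDR-thresholded summit between 5 and 6 kb upstream, just outside the window.

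Of 23 further genes of these pathways 7 had an IDR-thresholded summit in the same window, beside the 18.6% of all protein-coding genes. Their windows ran from 6.05 kb (egl-1) to 29.3 kb (tra-1), against a median of 7.03 kb over all genes. The difference in shares was not tested. In the promoter window 1 of the 23 had one (set-4), beside 8.42% of all genes. The groups hold 2 to 6 genes each, too few to set them apart. Among the elements that count X chromosomes against autosomes, the X-linked homeobox gene ceh-39 had a summit 2612 bp upstream (signal 44.8, nearer the start of T26C11.8) and the autosomal zinc finger gene sea-2 had 2 intronic ones (63.7 and 32.6), and fox-1, sex-1 and sea-1 had none. The further complex subunit gene mix-1, an SMC2 protein shared with other condensins, had an intronic summit 16035 bp downstream of its start (60.4, nearer the start of M106.8), and capg-1 had none. Both histone H4 lysine 20 methyltransferase genes had one, set-4 at 291 bp upstream (110) and set-1 at 1497 bp upstream (48.4), and the set-1 summit lay nearer the start of jhdm-1. The strongest peak of these 23 genes was at sup-26, an RNA-binding repressor of tra-2 translation. Its summits lay 1957, 2157 and 4669 bp upstream (180, 98.5 and 63.4), the last of them nearer the start of R10E4.3. Replicate 1 gave 80.2 (rank 130) and 31.0 (rank 875) for the 1957 and 2157 bp summits. In replicate 2 the same peak, with 103 (rank 39), was matched to both. The receptor gene tra-2 itself had a summit 2874 bp upstream (38.1), nearer the start of eif-2Bgamma, which lay 899 bp away. That summit fell in an intron of C15F1.5 and within annotated non-coding genes, among them sup-39 (snRNA) and C15F1.14 (ncRNA). No IDR-thresholded summit lay in the windows of tra-1, tra-3, fem-1, fem-2, fem-3, laf-1, fog-1, fog-2, fog-3, gld-1, mab-3 or egl-1.

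Motifs were counted in the windows of 7 of the 8 summits, a number too small to set their shares apart from those of all windows. The AP-1 element TGACTCA, whose reverse complement is TGAGTCA, and the CRE element TGACGTCA were in none of them on either strand, against 4.90% and 1.52% of all 2305 IDR-thresholded summit windows of 200 bp. CTGCGTCTC was in 1 of 7 windows (dpy-30), against 15.2% of all. GAGAGAGA was in none, against 13.4%, and the shorter GAGAGA, which it contains, was in 4 of 7 (all but both xol-1 windows and dpy-30), against 43.0%. These letters describe 200 bp of sequence and say nothing of whether JUN-1 touches it. The G and C content ran from 35% at the second xol-1 summit to 59.5% at dpy-21, around the median of 43.5% over all windows.

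The genes whose strongest peak ranked most like that of dpy-28 in the pooled and replicate lists were those that share its peak, tasp-1, K01G5.10, rnf-113 and hpl-2, a heterochromatin protein 1 gene. Beyond this peak, the smallest summed rank difference over the 3 lists, 0.0153 percentage points of list length, was that of the X-linked peak in the windows of cebp-1 and D1005.2 (signals of 209 in replicate 1 and 186 in replicate 2). The 2 genes of that peak were named after their values were seen.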

How the data were processed

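ChIP-seq peak lists of 2 biological replicates were used. The signal value, the −log10 q-value and the summit offset of each peak are those the authors deposited. Per the deposited provenance notes, a list of peaks and background was called on each replicate and on both together, with 1 control alignment for all, and the IDR-thresholded list came from these 3. The sources used here do not give the aligner, caller, IDR cutoff or scaling of the signal. Library fragments ranged from 150 to 350 bp, per the labels. The ce11 lists were used and the ce10 lists were not used here.

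From these, summits (start plus offset) were counted in gene windows of Ensembl release 115 (WBcel235, the assembly named ce11) with Python 3.11.15, pandas 2.3.3 and numpy 2.4.6. The starts of the 10 genes were the same in RefSeq, and the ends of sdc-1, dpy-27 and dpy-30 differed. Peaks were matched across lists by at least 1 bp of overlap, taking the nearest summit. Motifs were sought on both strands in 200 bp centred on each summit, overlapping matches included. The counting was tested on simulated data with known answers (200 windows, all counted right). The 10 genes, the 23 pathway genes and the motifs were chosen with earlier results of these data known, and the inverted repeat search and GAGAGA were added later. Every IDR-thresholded and pooled summit of the 10 genes is named, with the pathway genes that have an IDR-thresholded summit and the genes most like the strongest peak. The remaining replicate summits are given by value or range. The sequence at the her-1 summit is not reported here. The part of the shared control in the agreement of the replicates was not tested.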

Additional observations from a re-analysis of the deposited data

How the results depend on the processing

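The counts depended on the gene window. From 1000 bp upstream to 200 bp downstream of the start, 3 of the 10 genes had an IDR-thresholded summit (3 summits), with 1 of the 23 pathway genes and 1681 of all genes. From 2 kb upstream to the gene end the numbers were 3 genes, 3 summits, 5 pathway genes and 2559 of all genes. The upstream part was also stopped at the next protein-coding gene. Then 5 of the 10 genes, 6 of the 23 pathway genes and 2425 of all genes had an IDR-thresholded summit. Here the summits of dpy-28 and her-1 were lost. With summits kept only for the nearest protein-coding start they were 4 genes, 5 summits, 3 pathway genes and 1821 of all genes. Among the IDR-thresholded peaks above the median signal of that list they were 4 genes, 4 summits, 6 pathway genes and 2099 of all genes. These losses follow from the smaller windows, the stricter assignment or the shorter list. Requiring only 1 bp of the peak in the window left the counts at 7 genes and 8 summits, with 7 pathway genes and 3859 of all genes.

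With the strongest 2305 peaks of a single replicate in place of the IDR-thresholded list, 6 genes and 7 summits were counted in each case, with 7 pathway genes and 3630 to 3726 of all genes. The list left after dropping replicate 1 lacked dpy-30, and the list left after dropping replicate 2 lacked her-1. The replicate summits called shared fell to 15 or 16 in replicate 1 and to 15 or 17 in replicate 2 under stricter matching rules. Ranking by column 8 was not run because it holds the same value for every peak. Ranking by −log10 q, chosen after seeing the data, ties 2666 pooled peaks at the top, among them the dpy-26 peak and 361 peaks in all that the IDR-thresholded list leaves out. No paired analysis was possible because there is 1 group. Depth is unknown, so the weak summits carry no counting error.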

Other observations

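Short non-coding RNA genes lay beside 2 of the 7 summits whose sequence was described. The dpy-27 summit was 16 bp from R13G10.5, annotated as ncRNA, and the second xol-1 summit 38 bp from the ncRNA C18A11.13, which overlaps the tRNA gene beside it. The first xol-1 summit was 241 bp from C18A11.13, the dpy-30 summit was 375 bp from ZK863.11, and the summits at sdc-2, dpy-21 and dpy-28 were at least 2660 bp from any annotated non-coding gene. These distances were looked at after the peaks had been seen, and no expected share was computed.

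In the IDR-thresholded list, 44 summits had another within 250 bp, and the smallest gap between summits was 199 bp in each of the 4 lists. The paired summits of xol-1, and the pair 2157 and 1957 bp upstream of sup-26, are at or near this spacing.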
